A study of Mus musculus with 5 samples.

Results

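Gene expression in mouse testes at postnatal day 9 was compared between 2 conditional deletions of Dmrt1 that differed in the Cre strain. The DHH-cre Dmrt1 KO group held 1 array and the NGN-cre Dmrt1 KO group held 3 arrays, so that 4 of the 5 arrays of the series entered the comparison, chosen by their titles. All 4 samples were labelled Cre-positive, P9 and male. The remaining array, a Cre-negative control that carries the NGN-cre label, entered no test and is quoted only as a point of orientation. Every array was hybridised with total RNA from whole testes, and the array of 60-base probes gave 25631 transcript values per sample. The labels name the driver strains only as DHH-cre and NGN-cre, do not state which cells delete Dmrt1 in either strain, and do not say whether each sample is a separate animal. P-values therefore reflect sample-to-sample spread only, part or all of which could be technical.

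The DMRT1 protein is a transcription factor that contacts DNA through a zinc-binding module, the DM domain. In the mouse testis it is made in Sertoli cells, the somatic cells that nurse the germ line, and in spermatogonia, the mitotic germ cells from which spermatocytes and sperm arise. In published mouse work, loss of Dmrt1 in Sertoli cells lets ovarian genes such as Foxl2 be expressed, and loss in spermatogonia lets these cells enter meiosis too early. A testis at this age holds spermatogonia, the first spermatocytes, Sertoli cells, Leydig cells that make androgens, and peritubular muscle-like cells.

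Values are log2 of the deposited intensities, and differences are DHH-cre minus NGN-cre. Since the DHH-cre group has 1 array, the spread came from the 3 NGN-cre arrays alone, and the DHH-cre array was assumed to vary like them. The limma fit drew the spread of each transcript towards a value shared by all transcripts. That shared value had 4.75 prior degrees of freedom, against 2 residual ones for the transcript itself. SEs and p-values rest on this moderated spread. A transcript was called when the Benjamini-Hochberg adjusted p of limma, over all 25631 transcripts, was under 0.05. A second count used no variance model and took each transcript whose DHH-cre value lay at least 2-fold above the highest or below the lowest of the 3 NGN-cre values. A permutation of 1 array against 3 cannot give a p below 0.25. The array number in the DHH-cre sample's label does not belong to the run of numbers of the other samples, so array batch and deletion cannot be told apart in any result that follows.

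The DHH-cre array stood apart from the 3 NGN-cre arrays. Its Pearson correlations with them across all transcripts were 0.981, 0.979 and 0.980, while pairs of NGN-cre arrays correlated at 0.989 to 0.993. Across 1064 olfactory receptor transcripts, most of which are not expected in a testis, the SD of the differences was 0.467, 0.512 and 0.521 log2 units for pairs that included the DHH-cre array, against 0.349, 0.349 and 0.391 for pairs of NGN-cre arrays. The DHH-cre array thus lay further from the NGN-cre arrays on these transcripts than those arrays lay from each other. With 1 array, a wider spread and a shift of single transcripts cannot be told apart. The assumption of equal spread behind the p-values could not be checked, and the p-values may be too small. Median intensities on the 4 arrays lay between 725 and 730. The median log2 intensity of the olfactory receptor transcripts was 5.21, and where a group lies near that level the size of a fold is uncertain.

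The tissue label was checked against defining markers. Ddx4, a germ cell RNA helicase, measured 14.96 in DHH-cre testes, against 14.82, 14.89 and 15.04 in NGN-cre testes. Sox9, the transcription factor that sets Sertoli cell fate, measured 12.39 in DHH-cre testes, against 12.65, 12.09 and 12.21 in NGN-cre testes. Insl3, a peptide hormone of Leydig cells, measured 12.77 in DHH-cre testes, against 11.86, 12.10 and 11.84 in NGN-cre testes. These 3 markers of the main testis cell types lay far above the olfactory receptor level on every array.

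The targeted gene is given first. Dmrt1 measured 12.65 in DHH-cre testes, against 12.25, 12.46 and 12.43 in NGN-cre testes, and 13.53 on the control array. The DHH-cre value was the highest of the 4 knockout values. The difference of 0.27 (SE 0.22) did not pass the test, with an adjusted p = 0.576 by limma. The sources used here do not say where the probes lie relative to the deleted part of the gene, and whole-testis RNA mixes cells with and without the deletion.

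The test called 257 transcripts, or 1.00% of those measured. Of these, 70 were higher in DHH-cre testes (0.273%) and 187 were lower (0.730%). All 257 lay at least 2-fold outside the NGN-cre range, which is no separate support because both rules used the same values. The size rule alone took 817 transcripts (3.19%), 343 above the NGN-cre range (1.34%) and 474 below it (1.85%). The median difference over all transcripts was 0.01, with 50.6% of them above 0. A RefSeq symbol was matched for 160 called transcripts, 42 higher and 118 lower. Taking 1 row for each of 17277 genes, 154 genes were called (0.891%), 39 higher (0.226%) and 115 lower (0.666%). By the size rule 2.74% of genes lay outside the NGN-cre range, 1.10% above it and 1.64% below it, and 49.9% of genes had a difference above 0. Gene groups are read against these shares.

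Higher and lower calls differed in where they lay on the intensity scale. The 70 higher transcripts had a median of 9.25 in DHH-cre testes and 6.97 for the NGN-cre mean, and the NGN-cre mean was below the olfactory receptor median in 6 of them. The 187 lower transcripts had a median of 7.44 in DHH-cre testes and 9.68 for the NGN-cre mean, and the DHH-cre value was below the olfactory receptor median in 20 of them. The smallest called difference was 1.32 log2 units in size, and the middle of the distribution was 1.92.

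**Figure D1:**
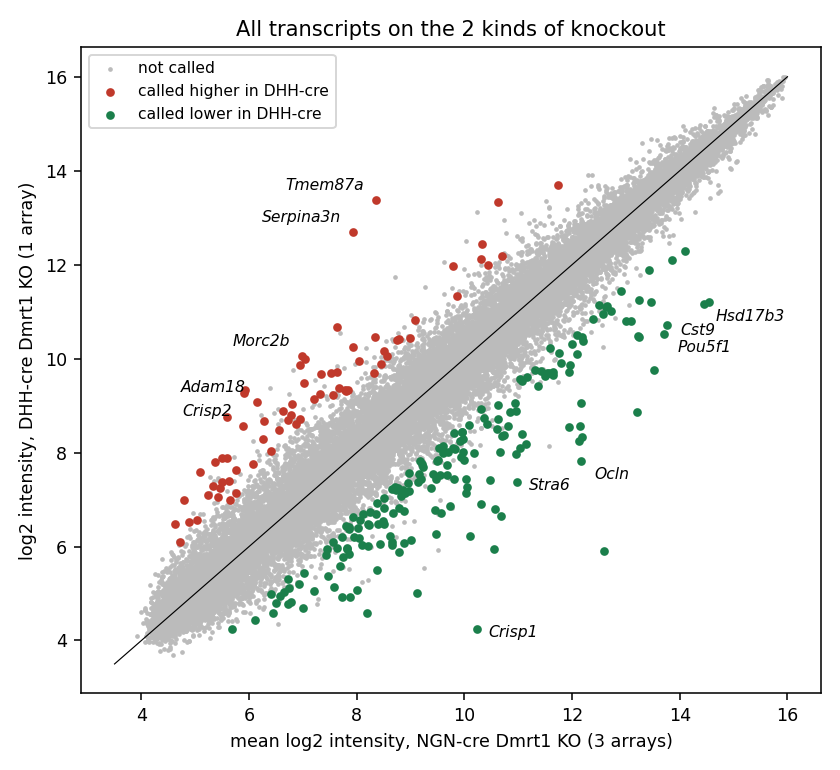
Log2 intensity of every transcript on the DHH-cre array (vertical axis) against the mean of the 3 NGN-cre arrays (horizontal axis), with called transcripts in colour and the line of equality drawn. The 187 lower transcripts spread below the line at low and high intensities, and the 70 higher ones lie at a median NGN-cre mean of 6.97.

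Many calls were lost when NGN-cre replicate 1 or replicate 2 was left out, and none when replicate 3 was. Each of these fits has fewer residual degrees of freedom. Without NGN-cre replicate 1 the fit called 38 transcripts, of which 37 (6 higher and 31 lower) belonged to the 257. Without NGN-cre replicate 2 it called 191, of which 150 belonged to the 257. Without NGN-cre replicate 3 it called 1321, which included all 257. Of the 15 largest rises and 15 largest falls among named genes, 16 of 30 stayed called without replicate 1, 29 without replicate 2 and 30 without replicate 3. Those lost without replicate 1 were Serpina3n, Olfr39, Adam2, Adam18, Tbr1, Hoatz, Mroh8, Arl9, Plbd1, Ciapin1, Lypd11, Rnf138rt1, Atp13a4 and Stra6, and Plbd1 was lost without replicate 2. The differences of these 14 genes moved by 0.0008 to 0.28 log2 units without replicate 1, and their adjusted p-values by limma were 0.0524 to 0.0999. With log2(intensity + 50) 22 of the 30 stayed called, and Plbd1, Lypd11, Padi6, Scn4b, Tbx19, Rnf138rt1, Atp13a4 and Etd were lost. Other called list members, described further on, also missed the threshold with that offset. They were Cdh1, Tspan8, Dppa3, Dppa2, Oaz3, Nr5a2, Hsd3b6, Slc4a1, Defb42, Nlrp4f, Krt15, Krt17, Olfr1444, Olfr108 and Olfr1281. Their adjusted p-values were 0.0522 to 0.108 by limma.

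Genes of the sperm surface were among those that rose. Adam2, the fertilin beta subunit of the sperm membrane, measured 8.75 in DHH-cre testes, against 5.71, 6.11 and 4.93 in NGN-cre testes. Adam18, a relative that is also carried on sperm, measured 9.07 in DHH-cre testes, against 5.63, 6.20 and 6.63 in NGN-cre testes. Crisp2, a cysteine-rich secretory protein of the acrosome and sperm tail, measured 8.56 in DHH-cre testes, against 6.03, 5.94 and 5.69 in NGN-cre testes. For each of the 3 genes the DHH-cre value was more than 2 log2 units above every NGN-cre value. The differences were 3.17 (SE 0.43) for Adam2, 2.92 (SE 0.38) for Adam18 and 2.68 (SE 0.24) for Crisp2, with limma adjusted p-values of 0.037, 0.033 and 0.016. The NGN-cre means of Adam2 (5.58) and Crisp2 (5.89) lay near the olfactory receptor median of 5.21, so the size of these rises is uncertain. With log2(intensity + 50) the differences were 2.27 for Adam2, 2.27 for Adam18 and 1.97 for Crisp2.

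These 3 genes were the called members among 25 measured genes of sperm surface and later germ cells. Of the 25, 17 were higher in DHH-cre testes and 8 lower, with a median difference of 0.56 against -0.0012 over all genes. Pdcl2, a phosducin-like gene of spermatids, had a difference of 3.0 but did not pass (adjusted p = 0.065 by limma). Izumo1, the sperm protein needed for fusion with the egg, had a difference of -1.54 and did not pass either (adjusted p = 0.065 by limma). The genes of chromatin packing and tail assembly in spermatids had a median of 0.10 over 16 members. Oaz3, the ornithine decarboxylase antizyme of spermatids, was the single called member there, at 10.43 in DHH-cre testes, against 9.10, 8.96 and 8.92 in NGN-cre testes. Without NGN-cre replicate 1 the test kept 1 of the 3 sperm surface calls, and Oaz3 was lost without replicate 1 (adjusted p = 0.126 by limma) and without replicate 2 (adjusted p = 0.064 by limma).

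Meiotic genes of the lists were mostly higher, with no call. Of 8 measured genes of the chromosome axis and synaptonemal complex, the scaffold that pairs homologues, 8 were higher in DHH-cre testes, with a median of 0.25. Sycp1, which forms the transverse filaments of that scaffold, measured 15.23 in DHH-cre testes, against 14.55, 14.75 and 14.54 in NGN-cre testes. Its difference of 0.62 did not pass (adjusted p = 0.207 by limma). Of 11 measured recombination genes, 10 were higher, with a median of 0.34, and 3 lay at least 2-fold above the NGN-cre range, a rule met by 1.10% of all genes. Msh4, a MutS homologue that stabilises crossover intermediates, measured 11.999 in DHH-cre testes, against 10.53, 10.48 and 9.91 in NGN-cre testes. Its partner Msh5 measured 13.91 in DHH-cre testes, against 12.75, 12.70 and 11.67 in NGN-cre testes. Both DHH-cre values lay above all 3 NGN-cre values, but neither difference passed, with adjusted p-values of 0.062 for Msh4 and 0.138 for Msh5 by limma. Morc2b, a MORC-family ATPase gene used in mouse meiosis, did rise, by 3.08 (SE 0.25). It measured 10.06 in DHH-cre testes, against 7.22, 6.83 and 6.90 in NGN-cre testes (adjusted p = 0.015 by limma).

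Genes of undifferentiated spermatogonia were mostly lower in DHH-cre testes. Of 19 measured, 17 were lower and 2 of them were called, with a median of -0.63. Cdh1, the epithelial adhesion molecule E-cadherin that these spermatogonia also carry, measured 11.26 in DHH-cre testes, against 13.58, 13.32 and 12.84 in NGN-cre testes (adjusted p = 0.048 by limma). Tspan8, a tetraspanin of the cell surface, measured 9.01 in DHH-cre testes, against 10.59, 10.44 and 10.85 in NGN-cre testes (adjusted p = 0.046 by limma). Neither call was kept without NGN-cre replicate 1 or without replicate 2. The summed intensity of the list was 44282 for DHH-cre, against 74268, 66695 and 70223 for the NGN-cre replicates. In whole-testis RNA, fewer cells of a type and less RNA per cell cannot be told apart.

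Genes of differentiating spermatogonia showed no common direction. The median of 7 measured members was -0.25, and none was called. Prss50, a testis serine protease, had the largest positive difference at 1.36 (adjusted p = 0.101 by limma). Sohlh1, a helix-loop-helix factor of spermatogonial differentiation, had the largest negative one at -0.94 (adjusted p = 0.102 by limma). Among 14 general germ cell genes the median was 0.03.

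Of 13 measured pluripotency genes, several of which are shared by spermatogonia and early embryos, 3 fell. Pou5f1, which encodes OCT4, fell to 10.52 in DHH-cre testes, against 13.68, 13.64 and 13.77 in NGN-cre testes. The control array read 12.90, also above the DHH-cre value. The fall of -3.18 (SE 0.21) passed with an adjusted p = 0.010 by limma, and it was called without each NGN-cre array in turn. Dppa3, a maternal and germ cell factor that guards DNA methylation, measured 9.90 in DHH-cre testes, against 11.89, 12.02 and 11.46 in NGN-cre testes. Dppa2, a chromatin factor of early embryos, measured 6.46 in DHH-cre testes, against 8.20, 8.54 and 7.95 in NGN-cre testes. On the control array Dppa3 read 9.75 and Dppa2 read 6.65, both nearer to the DHH-cre value than to the NGN-cre mean. In the list 10 genes were lower and 3 higher, with a median of -0.92. Pou5f1 was the 1 call kept without NGN-cre replicate 1, and also the 1 kept without replicate 2.

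Among oocyte genes 1 was called. Padi6, a peptidylarginine deiminase of oocyte cytoplasmic lattices, fell to 5.95 in DHH-cre testes, against 11.23, 10.64 and 9.79 in NGN-cre testes. Its difference of -4.61 (SE 0.50) passed with an adjusted p = 0.021 by limma and missed the threshold with log2(intensity + 50) (adjusted p = 0.0589). The control array, at 6.41, lay near the DHH-cre value. Zp2, a protein of the egg coat, measured 5.92 in DHH-cre testes, against 10.23, 10.22 and 8.06 in NGN-cre testes. Nlrp5, a maternal-effect gene of the oocyte, measured 8.15 in DHH-cre testes, against 12.24, 12.17 and 10.29 in NGN-cre testes. On each of these 3 genes NGN-cre replicate 3 was the lowest of its group, and Zp2 and Nlrp5 did not pass (adjusted p-values of 0.093 and 0.083 by limma). Padi6 was the single call among 21 measured oocyte genes, of which 13 were lower, with a median of -0.67. Of 13 measured Nlrp genes, 11 were lower and Nlrp4f was called. It measured 6.08 in DHH-cre testes, against 9.09, 9.16 and 8.36 in NGN-cre testes, and was not called without NGN-cre replicate 1.

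**Figure D2:**
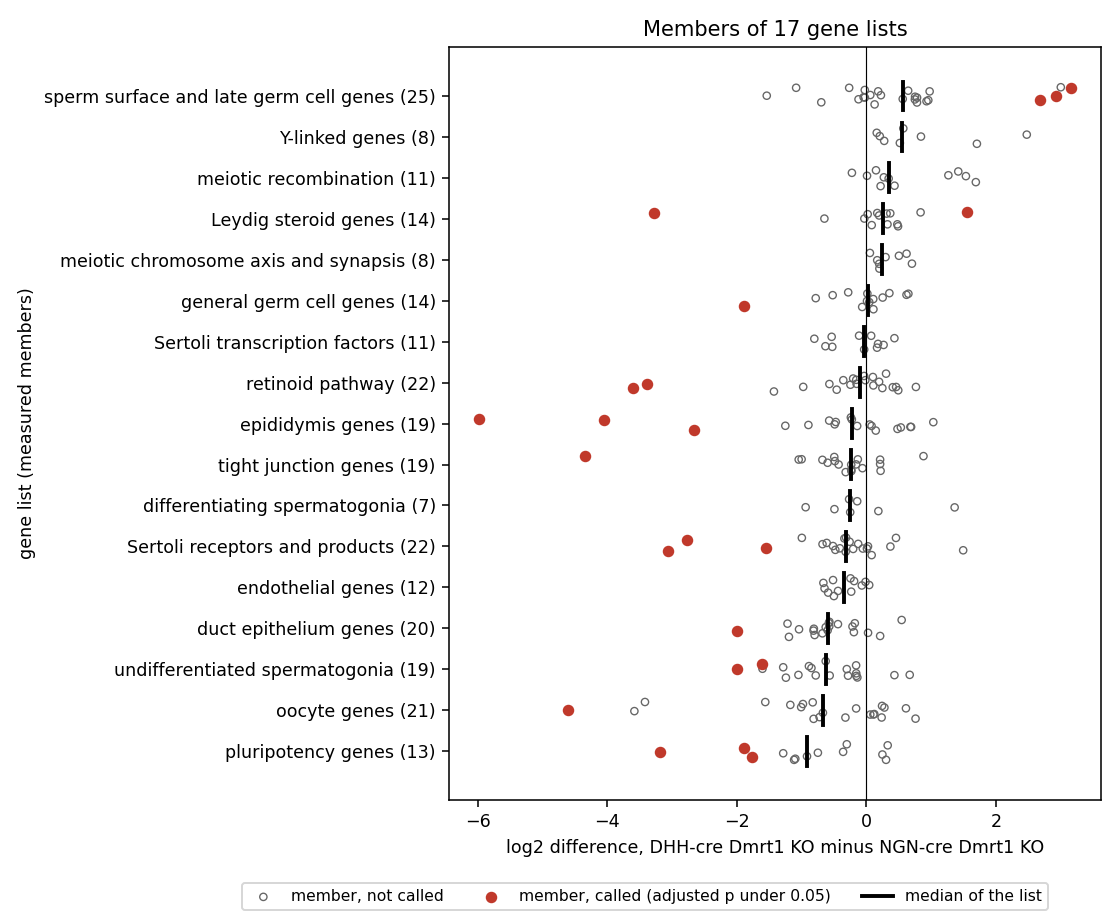
Log2 difference (DHH-cre minus NGN-cre mean) of each measured member of a selection of gene lists, with called members filled and the list median as a bar. Medians run from 0.56 for sperm surface and late germ cell genes at the top to -0.92 for pluripotency genes at the bottom, and most members of every list were not called.

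Secreted products and a receptor of Sertoli cells fell. Of 11 measured Sertoli transcription factors none was called, with a median of -0.03, and Sox8, a relative of Sox9, had the largest difference at -0.80 (adjusted p = 0.129 by limma). Cst9, a cystatin secreted by Sertoli cells, fell to 10.71 in DHH-cre testes, against 13.95, 13.72 and 13.63 in NGN-cre testes. Defb36, a beta-defensin counted here with the Sertoli products, fell to 10.46 in DHH-cre testes, against 13.34, 13.39 and 12.97 in NGN-cre testes. Fshr, the receptor for follicle-stimulating hormone, fell to 9.52 in DHH-cre testes, against 11.01, 11.13 and 11.08 in NGN-cre testes. In each case the DHH-cre value lay more than 1 log2 unit below the lowest NGN-cre value. The differences were -3.06 (SE 0.23) for Cst9, -2.77 (SE 0.25) for Defb36 and -1.55 (SE 0.21) for Fshr, with limma adjusted p-values of 0.015, 0.018 and 0.037.

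These were the 3 calls among 22 measured receptors and products of Sertoli cells, of which 16 were lower, with a median of -0.32. The test kept 1 call without NGN-cre replicate 1, and Fshr was lost without replicate 2 as well. Amh, the hormone that removes the female duct in the embryo, had a difference of -0.13 and did not pass (adjusted p = 0.835 by limma). Dhh, the Hedgehog ligand of Sertoli cells, had a difference of 0.46 (adjusted p = 0.351 by limma), and none of 13 measured genes of the Hedgehog pathway was called. Of the 3 called beta-defensins among 42 measured, all lower, the other members were Defb42, which fell by 2.66, and Defb29, which fell by 1.94, on the log2 scale. Of these 3 calls, Defb42 alone was kept without NGN-cre replicate 1.

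Ovarian somatic genes moved both ways. Foxl2, the factor that holds granulosa cell fate, measured 8.93 in DHH-cre testes, against 6.76, 7.43 and 6.83 in NGN-cre testes. Its difference of 1.92 missed the threshold (adjusted p = 0.051 by limma), although the DHH-cre value lay more than 2-fold above the NGN-cre range. Nr5a2, a nuclear receptor of granulosa cells, fell to 11.43 in DHH-cre testes, against 13.06, 12.77 and 12.89 in NGN-cre testes (adjusted p = 0.047 by limma). It was the single call among 13 measured genes, and was lost without NGN-cre replicate 1 and without replicate 2. The list's median was -0.24 and its mean 0.01.

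The junction and retinoid lists each held very large single falls. Ocln encodes occludin, a transmembrane protein of the tight junctions that form the barrier between Sertoli cells. It fell to 7.82 in DHH-cre testes, against 12.27, 11.99 and 12.22 in NGN-cre testes, and the control array read 12.82. The change was 20.3-fold lower, with an adjusted p = 0.0035 by limma. It was the single call among 19 measured junction genes, whose median was -0.23, and Tjp1, which encodes the cytoplasmic scaffold ZO-1, had a difference of -0.16 (adjusted p = 0.750 by limma).

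Stra6, the membrane receptor that takes up retinol from its carrier, fell to 7.37 in DHH-cre testes, against 11.31, 11.24 and 10.37 in NGN-cre testes. Crabp2, which carries retinoic acid to its nuclear receptors, fell to 6.91 in DHH-cre testes, against 10.43, 10.28 and 10.21 in NGN-cre testes. The control array read 11.74 for Stra6, on the NGN-cre side, and 7.62 for Crabp2, nearer to the DHH-cre value. The falls were -3.60 (SE 0.39) for Stra6 and -3.39 (SE 0.22) for Crabp2, with limma adjusted p-values of 0.021 and 0.010. They were the 2 calls among 22 measured genes of retinoid uptake, synthesis, breakdown and receptors, whose median was -0.09, and Stra6 was lost without NGN-cre replicate 1. Lrat, which stores retinol as esters, had a difference of -1.43 and did not pass (adjusted p = 0.059 by limma).

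The list of Leydig steroid genes held 1 call in each direction. Whole-testis RNA does not show which cells gave a signal, so the list does not place its members in Leydig cells at this age. Hsd17b3, the enzyme that makes testosterone from androstenedione, fell to 11.17 in DHH-cre testes, against 14.12, 14.29 and 14.92 in NGN-cre testes. Hsd3b6, an enzyme earlier in the same pathway, rose to 11.98 in DHH-cre testes, against 10.62, 10.41 and 10.27 in NGN-cre testes. The differences were -3.27 (SE 0.34) and 1.55 (SE 0.24), with limma adjusted p-values of 0.021 and 0.045. Hsd3b6 has close paralogues, and the sources used here do not say whether its probes tell them apart. Of 14 measured genes 11 were higher, with a median of 0.25, and 1 of the 2 calls was kept without NGN-cre replicate 1. The call of Hsd3b6 was lost without replicate 1 and also without replicate 2.

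The largest single rise was that of Tmem87a, a transmembrane protein of the Golgi. It measured 13.37 in DHH-cre testes, against 7.67, 8.35 and 9.04 in NGN-cre testes, and 8.92 on the control array, a 32.4-fold rise (adjusted p = 0.020 by limma). Serpina3n, a serine protease inhibitor of the acute-phase response with close paralogues in the mouse, measured 12.69 in DHH-cre testes, against 7.93, 8.64 and 7.22 in NGN-cre testes. It rose by 4.76 (SE 0.49), was the single call among 17 measured acute-phase and inflammation genes and among 55 Serpin genes, and was lost without NGN-cre replicate 1. The median of the acute-phase list was 0.14. Tbr1, a T-box factor of the brain cortex, measured 7.58 in DHH-cre testes, against 5.05, 5.29 and 4.90 in NGN-cre testes, where it lay at the olfactory receptor level. Olfr39, an olfactory receptor gene, measured 9.26 in DHH-cre testes, against 5.74, 6.52 and 5.47 in NGN-cre testes. The remaining genes of the 15 largest rises (Hoatz, Lpcat2b, Mroh8, Arl9, Plbd1, Ciapin1 and Lypd11) had differences between 2.02 and 2.43. The NGN-cre means of Hoatz (5.36), Lpcat2b (5.51), Mroh8 (5.59) and Olfr39 (5.91) lay near the olfactory receptor median. The size of these rises, and of that of Tbr1, is uncertain.

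The largest fall of a named gene was that of Crisp1. Crisp1, a secreted protein of the epididymis that coats sperm, measured 4.25 in DHH-cre testes, against 10.09, 10.33 and 10.26 in NGN-cre testes, and 8.28 on the control array. The fall was 63.1-fold, with an adjusted p = 0.0010 by limma, the lowest in the data, and its size is uncertain because the DHH-cre value was below the olfactory receptor median. An unnamed transcript fell further, to 5.90 in DHH-cre testes, against 13.18, 12.75 and 11.83 in NGN-cre testes. Tbx19, the T-box factor of pituitary corticotrophs, measured 6.23 in DHH-cre testes, against 10.47, 10.37 and 9.49 in NGN-cre testes. Scn4b, a sodium channel subunit, measured 5.02 in DHH-cre testes, against 9.78, 9.21 and 8.36 in NGN-cre testes. Tnnt2, the troponin T of heart muscle, fell to 11.20 in DHH-cre testes, against 14.27, 14.76 and 14.58 in NGN-cre testes. The others among the 15 largest falls (Rnf138rt1, Atp13a4, Jakmip1, Etd, Ap3b2 and Plac1, beside genes described above and below) had differences between -3.84 and -3.40. The DHH-cre values of Scn4b (5.02) and Etd (4.59) lay below the olfactory receptor median, and that of Padi6 (5.95) lay near it. The size of these falls is uncertain too.

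**Figure D3:**
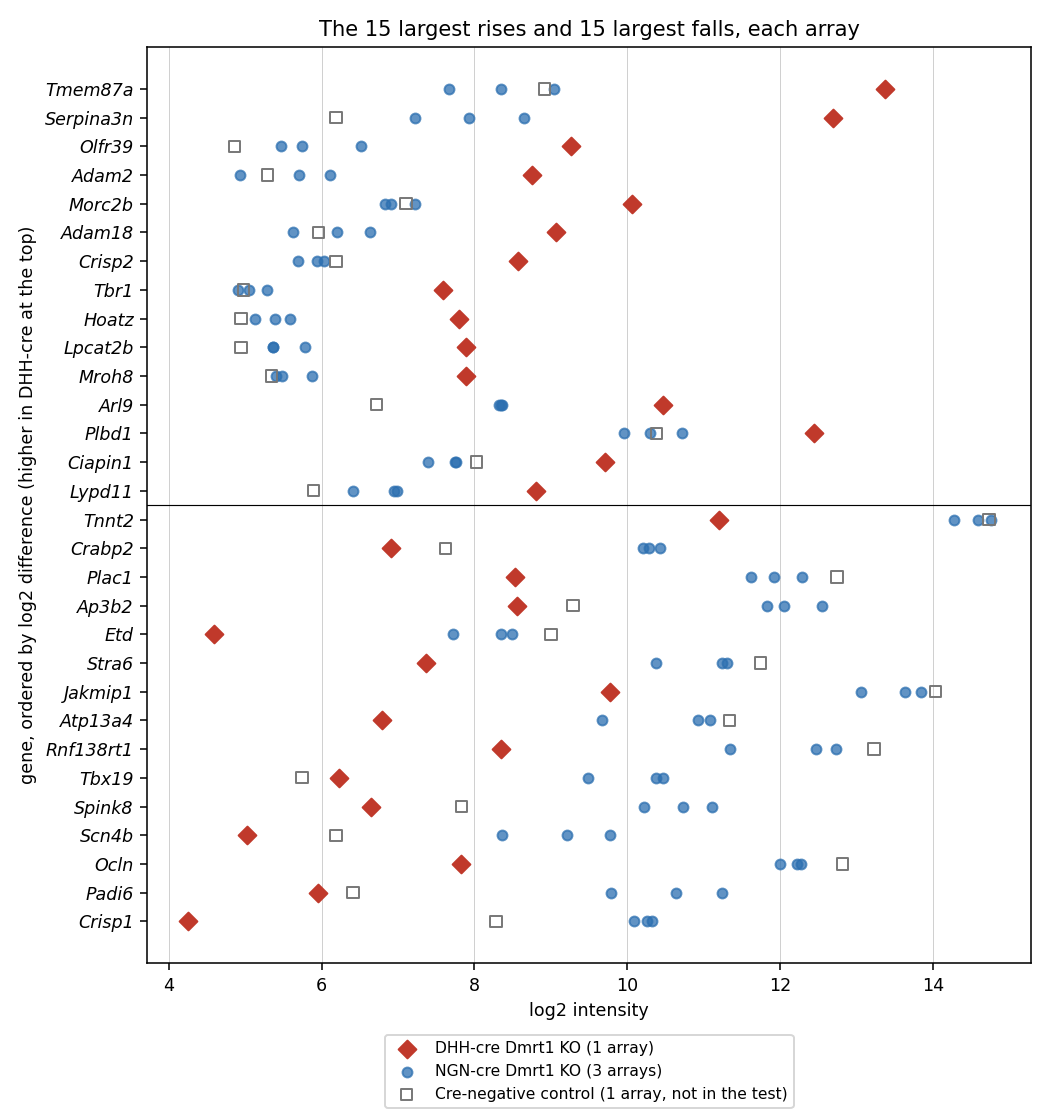
Log2 intensity (horizontal axis) on each array for the 15 named genes with the largest rises and the 15 with the largest falls, 1 gene per line, with diamonds for the DHH-cre array, filled circles for the 3 NGN-cre arrays and open squares for the control array. The diamond lies outside the NGN-cre circles on every line, and the squares of Padi6, Scn4b, Spink8, Tbx19, Ap3b2 and Crabp2 lie nearer to the diamond than to the mean of the circles.

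Genes of the epididymis, the duct that receives sperm from the testis, included some of the largest falls. Beside Crisp1, Spink8, a protease inhibitor of the epididymis, fell to 6.64 in DHH-cre testes, against 10.22, 10.72 and 11.11 in NGN-cre testes, and the control array read 7.83. Defb42, a beta-defensin of the epididymis, fell to 6.78 in DHH-cre testes, against 9.04, 9.69 and 9.61 in NGN-cre testes. These were the 3 calls among 19 measured epididymal genes, all 3 were kept without NGN-cre replicate 1, and the list's median was -0.22, with 8 members higher and 11 lower. The summed intensity of the list was 4340 for DHH-cre, against 7740, 8956 and 10323 for the NGN-cre replicates. Of 20 measured genes of duct epithelium, 17 were lower and Cdh1 was called, with a median of -0.59 and a summed intensity of 37274 for DHH-cre, against 58212, 53009 and 50687 for the NGN-cre replicates. Of 45 measured keratins, 31 were lower. Krt15, Krt12 and Krt17, at -1.74, -1.70 and -1.48, were called, and all 3 were lost without NGN-cre replicate 1. Krt17 was also lost without replicate 2. The part of these tissues in the other results was not tested.

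Other cell types that a whole testis can hold gave few calls. Of 12 measured endothelial genes, 11 were lower and none was called, with a median of -0.34 and a summed intensity of 27204 for DHH-cre, against 35757, 38423 and 34614 for the NGN-cre replicates. Of 11 measured erythroid genes, 9 were lower and Slc4a1, the anion exchanger of red cells, was called at -1.60 and lost without NGN-cre replicate 1. Their summed intensity was 13084 for DHH-cre, against 24034, 31066 and 27624 for the NGN-cre replicates. No call was made among 10 peritubular and smooth muscle genes (median -0.27), 14 macrophage genes (median -0.16), 12 lymphoid genes (median -0.13), 10 nerve and Schwann cell genes (median -0.35) or 10 fat cell genes (median -0.01). The part of these cells in the results for other genes was not tested.

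Lists of growth and stress genes gave 1 call. None of 16 measured cell cycle genes was called, with a median of -0.02, and none of 15 immediate early and heat shock genes, with a median of -0.12. Cdkn1a, the p21 inhibitor of cyclin-dependent kinases, fell to 9.69 in DHH-cre testes, against 11.80, 11.39 and 11.53 in NGN-cre testes. It was the single call among 12 measured p53 target genes, whose median was -0.09, and was lost without NGN-cre replicate 1. Of 75 measured ribosomal protein genes, 65 were lower by small amounts, with a median of -0.14 and no call.

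The DM-domain family and a list of genes known to work with Dmrt1 gave 1 call in all. None of 7 measured DM-domain genes was called. Dmrt2 and Dmrta1 had the largest differences, at -1.16 and -0.86, with adjusted p-values of 0.241 and 0.205 by limma. Of 9 measured partners and targets, Pou5f1 alone was called. The list's median was -0.80, with 4 members higher and 5 lower. By the size rule 1 member lay above the NGN-cre range and 2 below it, against 1.10% and 1.64% of all genes. Stra8, the gene that retinoic acid switches on before meiosis, measured 12.06 in DHH-cre testes, against 11.87, 12.33 and 11.44 in NGN-cre testes, so that the DHH-cre value fell inside the NGN-cre range.

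The promoters of called genes were searched for the core of the sequence that DM-domain proteins recognise, ACATTGT or, on the other strand, ACAATGT. The windows were those of RefSeq on build GRCm38.p6, from 250 bases before to 50 bases after the annotated start. The core was in 1 of 36 windows (2.78%) of genes called higher, in 4 of 113 windows (3.54%) of genes called lower, and in 399 of 17114 windows (2.33%) of all measured genes. The sequences of 4 matching promoters are shown because they are the called genes whose windows hold the core, with the core in capitals. Arl9, a small GTPase gene that rose by 2.12, lies on the plus strand at chr5:77003805-77004104, with the core 182 bases before the start. Vsig1, an immunoglobulin-domain adhesion gene at -2.68, lies on the plus strand at chrX:140907358-140907657, with the core 227 bases before the start. Serinc2, a serine incorporator gene at -1.49, lies on the minus strand at chr4:130271385-130271684, with the core 115 bases before the start. Arhgef4, a guanine nucleotide exchange factor gene at -2.0, lies on the plus strand at chr1:34801491-34801790, with the core 248 bases before the start. Vsig1, Serinc2 and Arhgef4 were chosen for this sequence after the values were seen. None of them stayed called without NGN-cre replicate 1, nor without replicate 2, and Arl9 was lost without replicate 1.
Arl9: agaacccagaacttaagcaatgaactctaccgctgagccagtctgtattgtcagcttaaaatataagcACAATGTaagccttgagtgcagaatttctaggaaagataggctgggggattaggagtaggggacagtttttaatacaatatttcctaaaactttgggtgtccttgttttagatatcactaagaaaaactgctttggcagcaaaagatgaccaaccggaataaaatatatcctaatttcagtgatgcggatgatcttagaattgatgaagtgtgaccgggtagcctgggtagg
Vsig1: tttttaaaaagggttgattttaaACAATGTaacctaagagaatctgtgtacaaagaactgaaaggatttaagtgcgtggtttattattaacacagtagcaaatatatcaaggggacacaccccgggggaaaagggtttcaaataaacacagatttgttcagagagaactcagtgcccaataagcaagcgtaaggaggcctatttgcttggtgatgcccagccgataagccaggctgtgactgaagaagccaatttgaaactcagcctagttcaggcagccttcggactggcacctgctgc
Serinc2: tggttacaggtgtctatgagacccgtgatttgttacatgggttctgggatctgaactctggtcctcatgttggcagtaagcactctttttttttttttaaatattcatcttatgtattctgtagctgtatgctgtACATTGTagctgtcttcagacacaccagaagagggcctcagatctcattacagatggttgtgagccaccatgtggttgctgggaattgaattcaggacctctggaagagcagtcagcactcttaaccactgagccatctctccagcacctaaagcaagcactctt
Arhgef4: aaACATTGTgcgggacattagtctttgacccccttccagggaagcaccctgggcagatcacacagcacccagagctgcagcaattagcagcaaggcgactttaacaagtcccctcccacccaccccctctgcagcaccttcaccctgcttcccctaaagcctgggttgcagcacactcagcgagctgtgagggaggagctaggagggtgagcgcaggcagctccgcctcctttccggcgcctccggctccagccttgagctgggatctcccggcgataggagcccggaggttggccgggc
A match describes these letters only, and the remaining match lay in a gene known by a clone name. Arl9 measured 10.47 in DHH-cre testes, against 8.37, 8.32 and 8.35 in NGN-cre testes, and 6.72 on the control array. Vsig1 measured 8.39 in DHH-cre testes, against 11.49, 11.19 and 10.54 in NGN-cre testes. Serinc2 measured 6.37 in DHH-cre testes, against 7.98, 7.77 and 7.83 in NGN-cre testes. For all 4 genes the DHH-cre value lay outside the NGN-cre range, as it did for every called transcript.

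The control array, which entered no fit, lay nearer to the NGN-cre mean than to the DHH-cre value for 232 of the 257 called transcripts. That held for 70 of 70 higher transcripts and for 162 of 187 lower ones. These transcripts were chosen for the distance between the DHH-cre array and the NGN-cre arrays, so the counts are a description with no test. For 25 lower transcripts the control lay nearer to the DHH-cre value. Those with a gene name included Padi6, Dppa3, Dppa2, Cdh1, Nr5a2, Crabp2, Tbx19, Scn4b, Spink8 and Ap3b2. Tbx19 measured 6.23 in DHH-cre testes, and the control array, at 5.74, lay below it. Dppa3 measured 9.90 in DHH-cre testes, and the control array read 9.75.

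**Figure D4:**
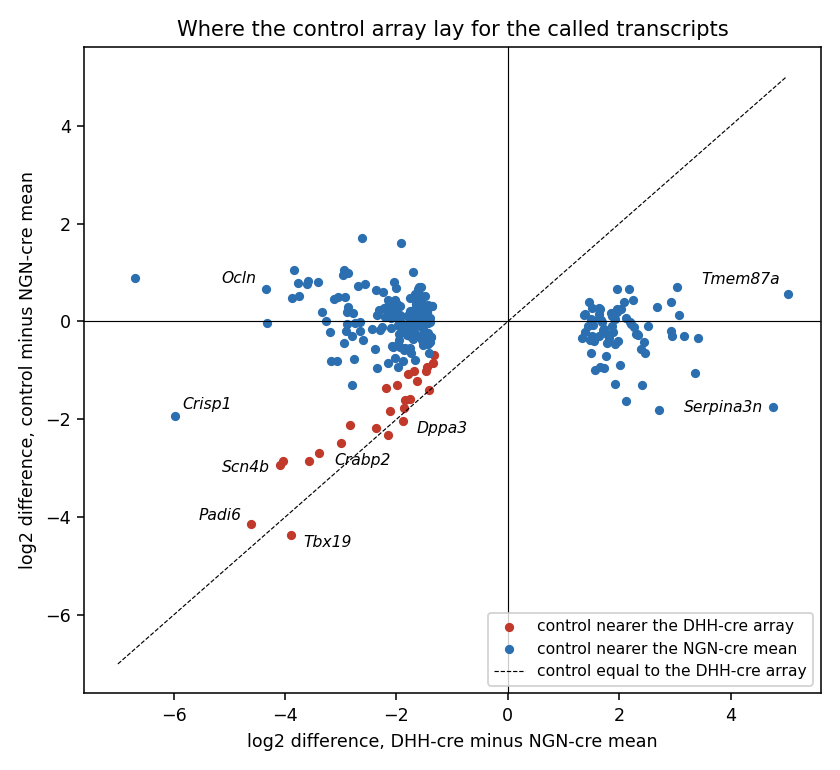
For each called transcript, the log2 difference of the control array from the NGN-cre mean (vertical axis) against that of the DHH-cre array from the NGN-cre mean (horizontal axis). Both axes share the NGN-cre mean. The 70 higher transcripts lie below the dashed line of equality with the DHH-cre array, while for 25 lower transcripts the control lies past the midpoint towards the DHH-cre value, about midway for some (Mat1a, Cdh1) and close to the line for others (Padi6, Tbx19).

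The number of calls depended on the variance model and on which NGN-cre arrays were in the fit, as the plot of calls by setting shows. Testing against a difference of at least 1 log2 unit left 6 calls and none higher. The named ones were Crisp1, Ocln, Crabp2 and Pou5f1, and the others were unnamed transcripts. At an unadjusted p under 0.05 there were 4696 transcripts, 2248 higher and 2448 lower. The 37 transcripts called in each leave-one-out fit, with the intensity trend, after repeated normalization and in the robust fit comprised 6 higher and 31 lower. When log2(intensity + 50) and the removal of dim rows were required as well, 28 were left, 6 higher and 22 lower.

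**Figure D5:**
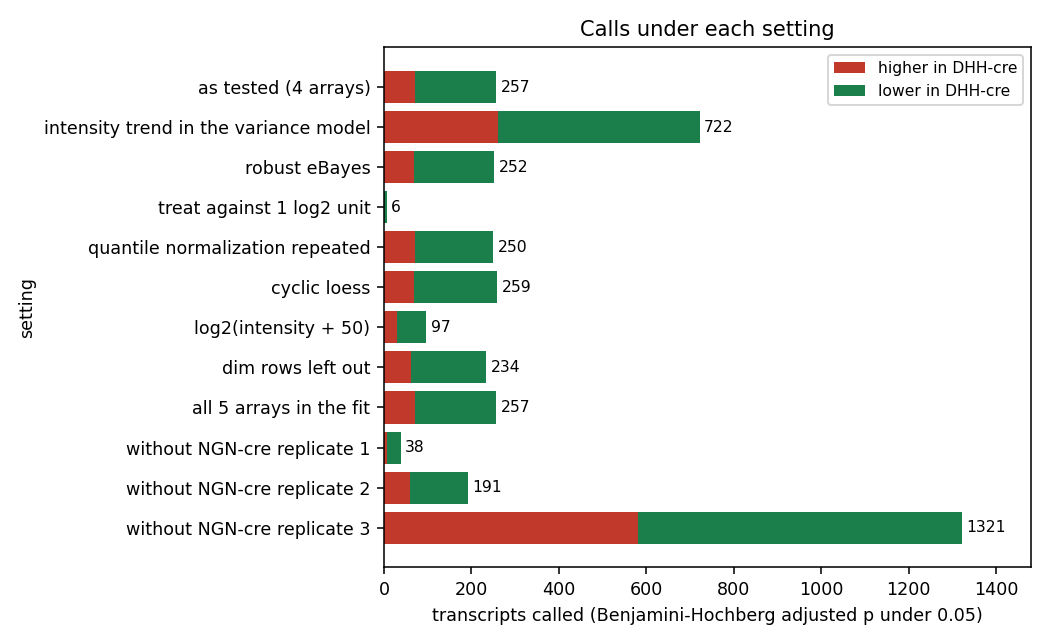
Number of transcripts called at an adjusted p under 0.05 (horizontal axis) under each setting of the limma fit, split into higher and lower in DHH-cre testes. The bars run from 6 for the test against 1 log2 unit to 1321 without NGN-cre replicate 3, with 257 for the fit on the 4 arrays as described, and lower calls outnumber higher ones in each bar.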

How the data were processed

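Total RNA from P9 testes was measured on single-colour Cy3 NimbleGen arrays of the MM8 60mer expression design, per the labels. Each deposited value is an intensity on the linear scale, which the authors made with RMA (version not stated), per the submitters' processing notes. RMA equalises the distributions of the arrays, so a change in total RNA cannot be seen. Scan settings, probe positions and probe numbers per transcript are not given in the sources used here. The 4 arrays limit the precision, and no depth applies.

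Log2 of the deposited intensity was taken with no offset and no filter. Of 25631 rows, 17780 matched 1 RefSeq symbol (GRCm38.p6, names only, apart from promoter windows), 0 matched several and 7851 stayed unnamed, among them nearly all predicted transcripts. These covered 17277 genes, and the row with the highest mean over the 4 arrays stood for a gene. The rows of Fn3k disagreed (0.05 for the other row, -2.36 for the row used), as did those of Cenpk (0.59 and 1.64).

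The groups were compared with lmFit and eBayes of limma 3.58.1 in R 4.3.3, two-sided, with 2 residual degrees of freedom from the NGN-cre arrays and Benjamini-Hochberg adjustment over all rows. No batch term could be fitted. Alternatives were an intensity trend, robust eBayes, a test against 1 log2 unit, repeated quantile normalization, cyclic loess, log2(intensity + 50), removal of dim rows, all 5 arrays, the mean over rows of a gene, and leaving out each NGN-cre array.

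Named genes were Dmrt1, the 15 largest rises and 15 largest falls among called genes, and for each of 45 gene lists up to 4 called members or, with none called, the 2 largest differences. Clone names and predicted genes were counted and not named by this rule. Genes named outside it were chosen after their values were seen, some as list members with a known role (such as Ddx4, Zp2 or Foxl2) and others for a promoter match, a neighbouring call or a theme (Vsig1, Serinc2, Arhgef4, Sly, Khdc1a, Khdc1c, Tnni1, Cstdc2, Aire, Dnmt3l, Dhx58 and Ifi44). The comparison, the lists and the rule were chosen with earlier results of these data known, and lists were given no test.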

Additional observations from a re-analysis of the deposited data

How the results depend on the processing

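The differences of all 94 named genes kept their sign under every alternative run. The medians of the fat cell, cell cycle, T-box and immediate early lists changed sign when 1 of the NGN-cre arrays was left out, and that of the fat cell list also with log2(intensity + 50). The 257 calls were 722 (261 higher, 461 lower) when the variance model followed intensity, 97 (29 higher, 68 lower) with log2(intensity + 50) and 6 in the test against 1 log2 unit, and 38 to 1321 when an NGN-cre array was left out. They were 252 in the robust fit, 250 after repeated quantile normalization, 259 after cyclic loess and 234 without dim rows. The 817 transcripts outside the NGN-cre range became 496 with log2(intensity + 50), and 1062 to 1231 with an NGN-cre array left out, where the range is narrower by construction. The cause of the other changes was not tested.

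The list medians given here were among those that changed under the alternatives. With log2(intensity + 50) they were -0.0585 for lymphoid, -0.21 for erythroid, -0.0862 for epididymal, 0.0804 for Adam, -0.34 for Crisp and Glipr, -0.68 for Nlrp and -0.26 for keratin genes. Without dim rows, which leaves fewer members, they were -0.0293 for lymphoid, -0.99 for erythroid, -0.16 for fat cell, -0.47 for epididymal, -0.15 for retinoid and -0.21 for p53 target genes. Cyclic loess gave -0.25 for peritubular genes. With an NGN-cre array left out, medians ran from -0.67 to -0.54 for undifferentiated spermatogonia, from -0.41 to -0.20 for Sertoli products, from -0.29 to -0.25 for peritubular, from -0.0034 to 0.0867 for fat cell, from -0.26 to -0.10 for epididymal, from -0.45 to -0.20 for tight junction, from 0.51 to 0.59 for Y-linked, from -0.52 to -0.28 for Crisp and Glipr, from -0.28 to -0.12 for beta-defensin, from -1.05 to -0.88 for Nlrp and from -0.41 to -0.34 for keratin genes.

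The counts that follow leave out the test against 1 log2 unit. Of the values of the 93 named genes other than Dmrt1, 832 stayed on their side of the threshold. A further 72 lost the call (33 of them without NGN-cre replicate 1), and 26 gained one (14 of them without NGN-cre replicate 3). In the test against 1 log2 unit, Crisp1, Ocln, Crabp2 and Pou5f1 were the only named genes called. For Dmrt1 the adjusted p by limma ran from 0.476 to 0.801 over the alternatives other than the test against 1 log2 unit. No paired analysis was possible because the DHH-cre group has 1 array and the labels give no replicate numbers. Near the olfactory receptor level the arrays measure differences with less certainty.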

Other observations

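Genes of the Y chromosome went both ways. All 8 measured genes of a list of Y-linked genes were higher in DHH-cre testes, with a median difference of 0.54 and no call. Zfy2, a zinc finger gene active in meiotic germ cells, measured 12.51 in DHH-cre testes, against 10.32, 10.50 and 9.29 in NGN-cre testes, and 8.27 on the control array (adjusted p = 0.065 by limma). Its copy Zfy1 measured 12.90 in DHH-cre testes, against 11.52, 11.36 and 10.69 in NGN-cre testes (adjusted p = 0.075 by limma). Both lay more than 2-fold above the NGN-cre range, and the probes may not tell the copies apart. Of 17 measured genes that RefSeq places on the Y chromosome, 4 were called, all lower. Sly, a multicopy gene of spermatids chosen after its values were seen, measured 5.13 in DHH-cre testes, against 7.72, 7.57 and 7.44 in NGN-cre testes. The other 3 are predicted genes at -2.02, -2.15 and -1.69 that may share probes with it. None of the 4 stayed called without NGN-cre replicate 1.

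Some called genes sit close together in the RefSeq order of measured genes, and these pairs were also chosen after their values were seen. Crisp1 and Crisp2 have 1 measured gene between them and went opposite ways, at -5.98 and 2.68. Cst9 and its neighbour Cstdc2, both of the cystatin group, likewise differed in direction, at -3.06 and 1.86. Tnni1 and Tnnt2, troponin genes of muscle with 1 measured gene between them, both fell, at -1.72 and -3.34. Khdc1a and Khdc1c, neighbouring genes of the oocyte and early embryo, both fell, at -1.87 and -2.16, and the control array lay nearer to the DHH-cre value for both. Dnmt3l, a cofactor of de novo DNA methylation in germ cells, fell to 7.44 in DHH-cre testes, against 9.96, 10.06 and 10.07 in NGN-cre testes, next to Aire at -1.61. Dhx58 and Ifi44, genes of the interferon response, rose by 1.73 and 1.96, while Isg15 and Ifit1 of the acute-phase list had differences of 1.34 and 0.82 and did not pass (adjusted p-values of 0.118 and 0.139 by limma). Without NGN-cre replicate 1, Tnni1, Khdc1a, Khdc1c, Aire, Cstdc2, Dhx58 and Ifi44 were not called, with limma adjusted p-values of 0.0963, 0.105, 0.0832, 0.122, 0.0999, 0.128 and 0.0894. Khdc1a and Aire were also lost without replicate 2. Dnmt3l stayed called without replicate 1, at an adjusted p = 0.0397 by limma.

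Other gene families gave few calls. Of 34 measured Adam genes, Adam2 and Adam18 were called, with a family median of 0.14. Of 8 Crisp and Glipr genes, Crisp2 was called higher and Crisp1 lower, with a median of -0.46. Of 17 T-box genes, Tbr1 was called higher and Tbx19 lower. No call was made among 15 Rhox genes (median -0.28), 77 cytochrome P450 genes (median 0.09), 32 kinesin genes (median 0.11) or 38 collagen genes (median -0.28). Of 38 collagen genes, 29 were lower, and Col5a3, a chain of type V collagen, had the largest difference at -1.45 (adjusted p = 0.104 by limma). Of 1064 olfactory receptor genes, 4 were called, a smaller share than the 0.891% called among all genes. Olfr39 and Olfr1444 were higher, and Olfr108 and Olfr1281 lower, at 3.35, 1.53, -1.51 and -1.40. Without NGN-cre replicate 1 none of the 4 stayed called, and without replicate 2 only Olfr39 did.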
